A study of Glycine max with 30 samples.

Results

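The genes described here are the phytochrome A and phytochrome B photoreceptor genes of soybean (Glycine max). They were taken by a fixed list of identifiers: Glyma.10G141400 (PHYA1), Glyma.20G090000 (PHYA2, the maturity locus E4), Glyma.19G224200 (PHYA3, the maturity locus E3), Glyma.03G227300 (PHYA4), Glyma.09G035500 (PHYB1) and Glyma.15G140000 (PHYB2). These are 6 of the 55589 gene identifiers counted, and all 6 passed the filter on low counts in every comparison. The identifiers place them on chromosomes 10, 20, 19, 3, 9 and 15. The count tables give no gene names, so the names are those of the list; the RefSeq gene table for Glycine_max_v4.0 carried phytochrome symbols on chromosomes 10, 20, 19 and 9, but matched 0 of the 55589 identifiers.

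Phytochromes are red and far-red light receptors: a bound bilin pigment switches the protein between a red-absorbing and a far-red-absorbing form, and the latter moves into the nucleus and alters gene expression. In Arabidopsis, phytochrome A accumulates in darkness, is degraded in light and mediates responses to far-red light, whereas phytochrome B is stable in light and represses the elongation and early flowering that shade brings on. In soybean, working alleles of E3 and E4 delay flowering under long days, and the ancient duplications of the genome left most of these receptors as pairs of similar copies.

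Poly(A) RNA of mature leaves was sequenced from 30 libraries, taken from families in which RNAi targets Pol IV or Pol V, plant-specific polymerases that work in RNA-directed DNA methylation. Pol IV has NRPD1 as its largest subunit, Pol V has NRPE1, and both contain NRP(D/E)2. The NRPD1-RNAi family is of cultivar Jack, with 3 transgenic (T) and 3 non-transgenic (NT) siblings. Cultivar Mustang carries the other families, NRPE1-RNAi and NRP(D/E)2-RNAi, each with 6 T and 6 NT siblings. The labels named neither the promoter of the constructs, nor the number of transformation events, nor the age of the plants, and the T and NT siblings differ by the transgene as a whole. Jack therefore stands for 1 family, and cultivar, construct and family cannot be told apart between Jack and Mustang.

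Library totals ranged from 10049997 to 21763621 counts. Levels are CPM, counts scaled to a common library total after TMM scaling (trimmed mean of M values) over all 30 libraries. The TMM factors ran from 0.655 to 0.944 in Jack and from 0.871 to 1.28 in Mustang, so levels set between cultivars depend on this scaling. Of the Jack libraries, T replicate 3 stood apart on the first principal component of the expressed genes of that family, with a score of 155 against scores from -63.2 to 4.95 in the other 5 and 55.2% of the variance. A gene with a Benjamini-Hochberg adjusted p under 0.05 over all genes tested in edgeR's quasi-likelihood test is termed called. No gene lengths were used, so levels of different genes are not compared with each other.

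**Figure D1:**
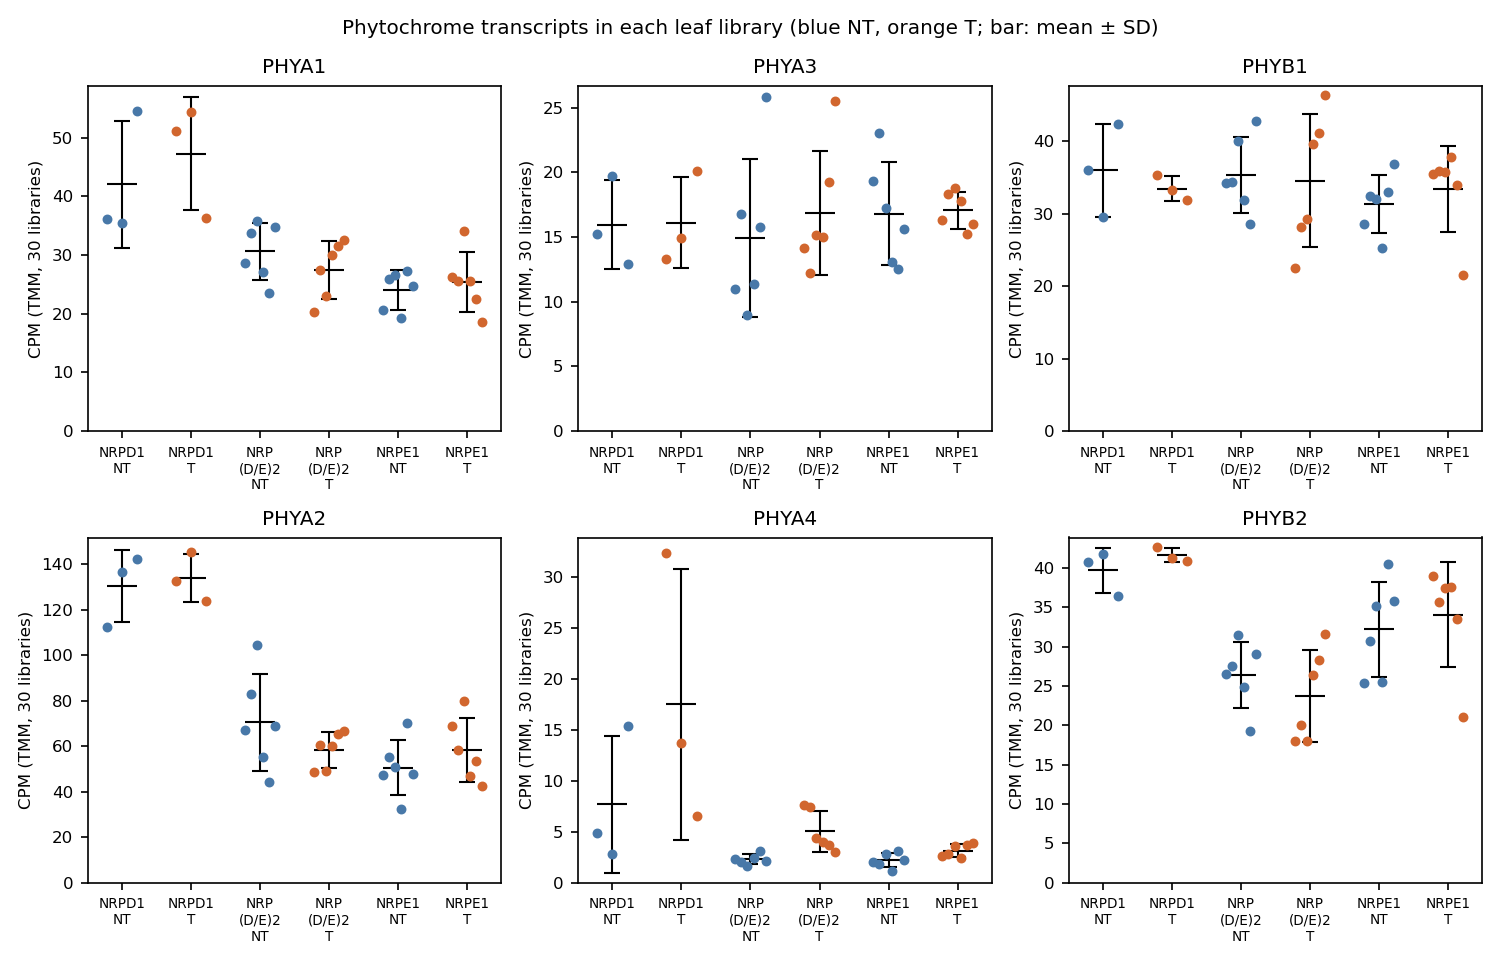
CPM (y axis, linear from 0) of each phytochrome gene in every leaf library, by family and transgene (x axis); points are libraries and bars the mean ± SD of a group (n = 3 in NRPD1-RNAi, n = 6 in the others). PHYA2 lies at 113 CPM or more in all 6 Jack libraries and at 105 CPM or less in all 24 Mustang libraries, and PHYA4 spreads from 2.81 to 32.4 CPM within Jack.

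PHYA4 was the one phytochrome gene whose transcript rose in transgenic leaves by the test, and it did so in the NRP(D/E)2-RNAi family, by 2.25-fold. The other 5 genes were not called in any family. In NRP(D/E)2-RNAi, PHYA4 read 1.67 CPM in the lowest, 2.23 in the median and 3.14 in the highest of 6 NT leaves. In the 6 T leaves it read 2.98 CPM in the lowest, 4.23 in the median and 7.66 in the highest. The groups overlapped by a single T leaf: 5 of 6 T leaves lay above every NT leaf. The group means were 2.30 ± 0.49 CPM in NT and 5.04 ± 1.99 CPM in T (SD, n = 6 each), and the log2 fold change was 1.17 ± 0.26 (SE, 95% interval 0.61 to 1.73, adjusted p = 0.0126, edgeR's quasi-likelihood test). Of all genes tested in this family, 15.9% were called and 8.6% were called higher, so 1 called gene of 6 is near the background.

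PHYA4 was the scarcest of the set in raw counts, with 23 to 289 counts a library. At its lowest count the counting error alone is 20.9% of the value. It kept its call in all 18 alternative fits of this family, with log2 fold changes between 1.02 and 1.30 and adjusted p-values between 0.000551 and 0.0472. In whole-leaf RNA, a change in the share of cells that carry a transcript and a change in the amount per cell cannot be told apart.

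In the NRPE1-RNAi family PHYA4 was placed the same way but was not called. It read 1.20, 2.16 and 3.16 CPM in the lowest, median and highest of 6 NT leaves. The corresponding values in 6 T leaves were 2.39, 3.18 and 3.90 CPM. The groups overlapped, with 3 of 6 T leaves above every NT leaf. The log2 fold change was 0.53 ± 0.24 (SE, 95% interval 0.02 to 1.04), with an unadjusted p of 0.0444 and an adjusted p of 0.318 in edgeR's quasi-likelihood test. In this family 1.97% of all genes were called; of the phytochrome genes, 0 of 6 were called by edgeR, 0 by DESeq2, and 1, PHYA4, had an unadjusted p under 0.05, as had 15% of all genes.

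In the Jack NRPD1-RNAi family PHYA4 varied widely between siblings of the same group and was not called. The NT leaves read 4.92, 2.81 and 15.4 CPM (replicates 1 to 3) and the T leaves 32.4, 13.7 and 6.56 CPM. T replicate 1, NT replicate 3 and T replicate 2 were the high leaves, so the high and low leaves cross the labels. The log2 fold change was 1.20 ± 0.74 (SE, 95% interval -0.57 to 2.96, adjusted p = 0.790, edgeR's quasi-likelihood test), and it moved from 0.39 without T replicate 1 to 2.16 without NT replicate 3. Of all genes in this family 0.0164% were called, and 7.82% had an unadjusted p under 0.05; of the phytochrome genes, 0 of 6 passed either criterion, and DESeq2 called 0.

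PHYA1 and PHYA2 form the first copy pair; PHYA2 is E4, one of the phytochrome A genes that delay flowering in long days. Neither was called in T against NT in any family. PHYA1 read 36.1, 35.5 and 54.5 CPM in the Jack NT leaves and 51.0, 54.4 and 36.4 CPM in the T leaves. The 3 high leaves were again NT replicate 3, T replicate 1 and T replicate 2. The first principal component of the expressed genes within the Jack family gave those 3 leaves scores of -63.2, -54.3 and -36.2. On it NT replicates 1 and 2 and T replicate 3 scored -6.77, 4.95 and 155. The log2 fold change of PHYA1 in NRPD1-RNAi was 0.20 ± 0.23 (SE, adjusted p = 0.914 in edgeR).

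PHYA2 read 113, 136 and 142 CPM in Jack NT leaves and 133, 145 and 124 CPM in Jack T leaves, which overlap. In NRP(D/E)2-RNAi it read 44.1, 68.0 and 105 CPM (lowest, median, highest) in NT and 48.9, 60.4 and 66.5 CPM in T. In NRPE1-RNAi the same values were 32.5, 49.3 and 70.0 CPM in NT and 42.4, 55.9 and 79.8 CPM in T. T and NT thus overlapped in each family. The log2 fold changes of PHYA2 were 0.07 ± 0.18, -0.23 ± 0.18 and 0.21 ± 0.19 (SE) (in the order Jack, NRP(D/E)2-RNAi, NRPE1-RNAi), with edgeR adjusted p-values of 0.964, 0.377 and 0.631. The 95% intervals were -0.36 to 0.50, -0.61 to 0.15 and -0.19 to 0.62.

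PHYA1 in the Mustang families lay lower, from 18.5 to 35.8 CPM over both. It read 23.6, 31.2 and 35.8 CPM (lowest, median, highest) in NRP(D/E)2-RNAi NT and 20.4, 28.7 and 32.6 CPM in T. In NRPE1-RNAi it read 19.2, 25.3 and 27.3 CPM in NT and 18.5, 25.6 and 34.1 CPM in T. Its log2 fold changes, -0.12 ± 0.14 and 0.09 ± 0.14 (SE), had edgeR adjusted p-values of 0.574 and 0.811.

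PHYA3, which is E3, was not called in any comparison. Its group means lay within a narrow range, between 14.9 and 17.1 CPM. In Jack it read 15.3, 19.7 and 12.9 CPM in NT and 13.3, 14.95 and 20.1 CPM in T, so the leaves that were high for PHYA1 and PHYA4 were the low ones for PHYA3. In NRP(D/E)2-RNAi the lowest, median and highest leaves read 8.98, 13.6 and 25.8 CPM in NT and 12.3, 15.1 and 25.5 CPM in T. In NRPE1-RNAi they read 12.6, 16.4 and 23.0 CPM in NT and 15.2, 17.1 and 18.8 CPM in T. In the order Jack, NRP(D/E)2-RNAi, NRPE1-RNAi, the log2 fold changes of PHYA3 were 0.05 ± 0.26, 0.21 ± 0.25 and 0.03 ± 0.14 (SE), all with wide overlap of T and NT leaves.

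Neither phytochrome B gene was called in T against NT in any family. PHYB1 read 36.0, 29.5 and 42.4 CPM in Jack NT and 35.3, 33.2 and 31.8 CPM in Jack T. In NRP(D/E)2-RNAi its lowest, median and highest leaves read 28.6, 34.3 and 42.7 CPM in NT and 22.5, 34.4 and 46.3 CPM in T. In NRPE1-RNAi they read 25.2, 32.2 and 36.9 CPM in NT and 21.6, 35.5 and 37.7 CPM in T. T and NT leaves overlapped in every family, and the log2 fold changes of PHYB1 were -0.07 ± 0.18, 0.01 ± 0.17 and 0.10 ± 0.13 (SE) in the same order of families.

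PHYB2 read 40.8, 41.9 and 36.5 CPM in Jack NT and 42.6, 41.3 and 40.9 CPM in Jack T. The T leaves there averaged 41.6 ± 0.91 CPM (SD, n = 3), a coefficient of variation of 2.19%. In NRP(D/E)2-RNAi its lowest, median and highest leaves read 19.3, 27.0 and 31.4 CPM in NT and 18.0, 23.2 and 31.6 CPM in T. In NRPE1-RNAi they read 25.4, 33.0 and 40.6 CPM in NT and 21.0, 36.6 and 39.0 CPM in T. These groups overlapped too. The log2 fold changes were 0.10 ± 0.16, -0.12 ± 0.16 and 0.09 ± 0.16 (SE), and the widest of the 95% intervals, in NRPD1-RNAi, ran from -0.27 to 0.47.

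**Figure D2:**
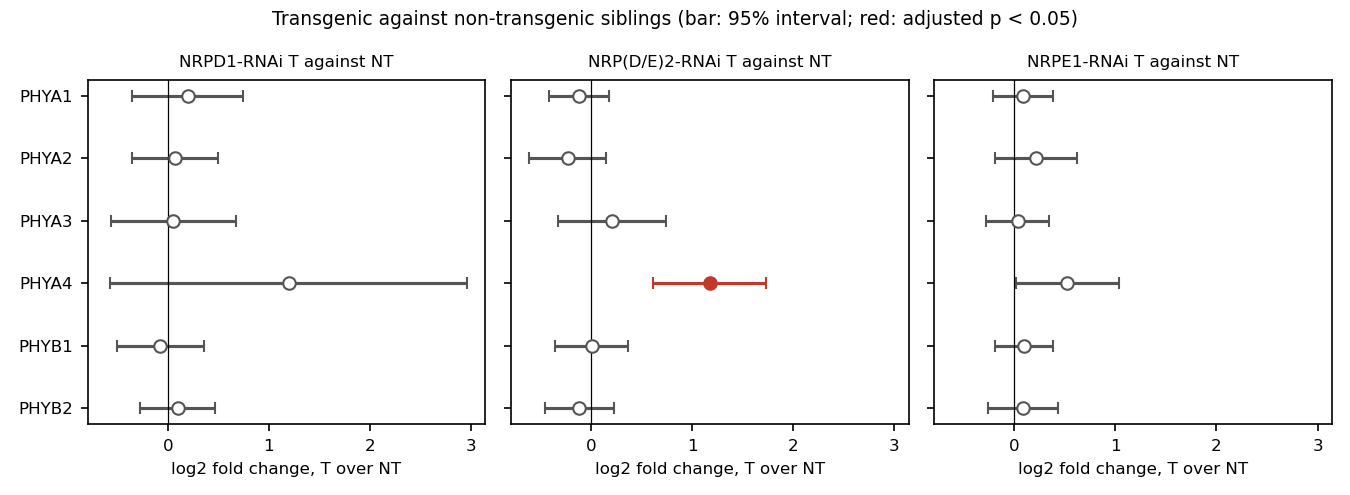
Log2 fold change of T over NT siblings (x axis) for each phytochrome gene (y axis) in the 3 families; points are edgeR estimates, bars 95% intervals, and the filled red point has an adjusted p under 0.05. PHYA4 in NRP(D/E)2-RNAi, at 1.17, is the one called gene, and the interval of PHYA4 in NRPD1-RNAi runs from -0.57 to 2.96.

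Over the 6 genes, the median log2 fold change was 0.08 in the Jack family, 0.09 in NRPE1-RNAi leaves and -0.06 in leaves of NRP(D/E)2-RNAi, beside medians of 0.01, -0.01 and -0.01 over all genes tested. Whether a family's effect differed from another's was tested in 1 model of all 30 libraries, in which the 6 groups share 1 estimate of the spread. For PHYA4 the NRPE1-RNAi effect minus the NRP(D/E)2-RNAi effect was -0.62 ± 0.50 on the log2 scale (SE, 95% interval -1.65 to 0.41, adjusted p = 0.715, edgeR's quasi-likelihood test), so the called and the uncalled effect were not shown to differ. The NRPD1-RNAi effect on PHYA4 minus the mean effect in both Mustang families was 0.35 ± 0.55 (SE, 95% interval -0.77 to 1.48, adjusted p = 0.975 in edgeR). Across all genes, 0.169% and 0.401% were called in these tests of differences; of the phytochrome genes, edgeR called 0 of 6 in each, DESeq2 called 0, and 0 had an unadjusted p under 0.05, which 9.74% and 7.93% of all genes had.

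Between Jack and Mustang leaves, 4 of the 6 genes were called. In NT leaves, PHYA1, PHYA2, PHYA4 and PHYB2 were called higher in Jack than in Mustang, and the same 4 were called higher in T leaves, which are other plants. The background is high: 54.7% of all genes were called in NT leaves and 28.5% were called higher in Jack, and in T leaves 51% were called and 28.4% called higher. PHYA3 and PHYB1 were not called in either.

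PHYA2 (E4) differed most firmly. Its 3 Jack NT leaves, at 113 to 142 CPM, did not overlap with the 12 Mustang NT leaves, at 32.5 to 105 CPM with a median of 55.3. The 3 Jack T leaves, at 124 to 145 CPM, did not overlap with the 12 Mustang T leaves, at 42.4 to 79.8 CPM. Of all genes, 15.4% in NT and 9.21% in T had every Jack leaf above every Mustang leaf. The log2 difference was 1.13 ± 0.19 in NT (SE, adjusted p = 1.98e-05) and 1.20 ± 0.19 in T (adjusted p = 9.51e-06, edgeR's quasi-likelihood test). PHYA2 stayed called higher in Jack in all 23 alternative fits of each contrast.

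PHYA4 was higher in Jack by 1.77 ± 0.36 on the log2 scale in NT (SE, adjusted p = 0.00018) and by 2.13 ± 0.34 in T (adjusted p = 1.27e-05, edgeR's quasi-likelihood test). The Mustang NT leaves read 1.20 to 3.16 CPM, and 2 of 3 Jack NT leaves lay above all of them. Without Jack NT replicate 3 the NT difference was 0.77 and was no longer called (adjusted p = 0.11 in edgeR). In T it was 1.26 without T replicate 1 and stayed called. Beside this result stand the scores of these leaves on the first principal component, given above; their part in it was not tested.

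PHYA1 was higher in Jack by 0.63 ± 0.17 in NT (SE, adjusted p = 0.00224) and by 0.84 ± 0.16 in T (adjusted p = 0.000131, log2 scale, edgeR's quasi-likelihood test). The 3 Jack T leaves, at 36.4 to 54.4 CPM, did not overlap with the 12 Mustang T leaves, at 18.5 to 34.1 CPM. In NT leaves the groups overlapped narrowly, and without Jack NT replicate 3 the difference was 0.39 and not called (adjusted p = 0.0854).

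PHYB2 had the smallest of the called differences, 0.44 ± 0.17 in NT (SE, adjusted p = 0.0310) and 0.55 ± 0.17 in T (adjusted p = 0.00921, log2 scale, edgeR's quasi-likelihood test). Set against the NRPE1-RNAi family alone it was 0.30 in NT and 0.29 in T and was not called (adjusted p = 0.197 and 0.230). It also lost its NT call without Jack NT replicate 1 (adjusted p = 0.0996) or 2 (adjusted p = 0.129), and its T call without Jack T replicate 1 (adjusted p = 0.0647, all from edgeR).

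PHYA3 and PHYB1 showed no such offset under TMM. PHYA3 averaged 16.0 ± 3.1 CPM in 6 Jack leaves and 16.4 ± 4.2 CPM in 24 Mustang leaves (SD), with log2 differences of 0.01 ± 0.24 in NT and -0.07 ± 0.24 in T (SE). PHYB1 averaged 34.7 ± 4.4 and 33.6 ± 6.1 CPM (SD), with log2 differences of 0.11 ± 0.17 and -0.02 ± 0.17 (SE). The 95% interval of the PHYB1 difference in NT ran from -0.24 to 0.47.

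These cultivar values move with the scaling of the libraries. Scaling by total counts moved the median log2 difference of all genes from -0.04 to -0.55 in NT and from 0.01 to -0.49 in T, and the share of called genes that were higher in Jack from 52.2% to 27.6% in NT and from 55.7% to 27.6% in T. Under total counts PHYA2 and PHYA4 remained called higher, at 0.62 and 1.31 in NT and 0.69 and 1.52 in T. PHYA1, at 0.13 and 0.30, and PHYB2, at -0.07 and 0.04, were not called, and PHYB1 in T leaves was called lower at -0.54 (adjusted p = 0.0176 in edgeR). A change of scaling shifts all genes of a contrast nearly alike. Values relative to the median of all genes are thus nearly fixed by construction. The NT difference of PHYA2 was 1.16 above the median under TMM and 1.17 under total counts. That of PHYA1 was 0.67 and 0.68, and that of PHYB2 was 0.48 under both. These values do not test which scaling holds.

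**Figure D3:**
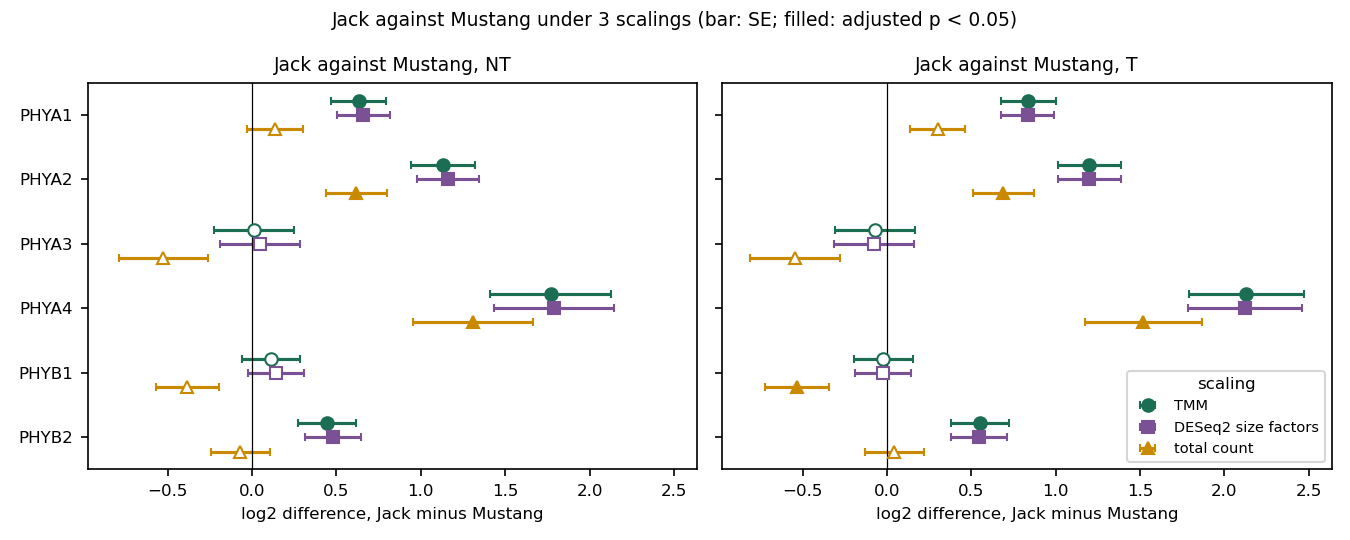
Log2 difference of Jack minus Mustang (x axis) for each phytochrome gene (y axis) in NT leaves (left) and T leaves (right) under 3 scalings; points are edgeR estimates, bars standard errors, and filled points have an adjusted p under 0.05. PHYA2 and PHYA4 are filled under all 3 scalings, while total counts bring PHYA1 and PHYB2 to between -0.07 and 0.30.

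The non-transgenic leaves of the Mustang families served to show how far these genes differ within a cultivar. Of all genes 39.9% were called between NRPE1-RNAi NT and NRP(D/E)2-RNAi NT, 19.5% of all being lower in NRPE1-RNAi. Of the phytochrome genes, 1 of 6 was called: PHYA2 was lower in NRPE1-RNAi NT, with means of 50.6 ± 12.2 against 70.5 ± 21.2 CPM (SD, n = 6 each) and a log2 difference of -0.48 ± 0.18 (SE, adjusted p = 0.0381, edgeR's quasi-likelihood test). The groups overlapped, from 32.5 to 70.0 against 44.1 to 105 CPM. The call was lost in a fit of only these groups (adjusted p = 0.102) and without any one of NRP(D/E)2-RNAi NT replicates 2 and 3 and NRPE1-RNAi NT replicates 1, 3, 4 and 6, with adjusted p-values between 0.0554 and 0.143. PHYA1 was placed the same way, at -0.35 ± 0.15 (SE, adjusted p = 0.0741, edgeR; 0.0409 without NRP(D/E)2-RNAi NT replicate 5), and PHYB2 the other way, at 0.28 ± 0.16 (SE, adjusted p = 0.157, edgeR). Total counts moved the median of all genes from 0.02 to -0.15 here, and then both PHYA2 (-0.66) and PHYA1 (-0.53) were called lower.

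The balance of the copies within a library needs no scaling between libraries. It was taken as the log2 ratio of the counts of the copies, with 0.5 added to each count; the level of the ratio also depends on the lengths of the copies, so only its differences between libraries are read. For PHYB1 over PHYB2, the NRP(D/E)2-RNAi leaves had means of 0.42 ± 0.11 in NT and 0.53 ± 0.12 in T (SD, n = 6 each). The NRPE1-RNAi leaves, of the same cultivar, had means of -0.03 ± 0.17 in NT and -0.02 ± 0.07 in T. All 12 leaves of the former family lay between 0.32 and 0.70 and all 12 of the latter between -0.30 and 0.16, so the families did not overlap in either T or NT. This contrast of families was picked after its values were seen and is given without a test. Among single genes, 8.57% of all genes lay wholly higher in NRPE1-RNAi NT than in NRP(D/E)2-RNAi NT, and 9.24% wholly lower. The share over other copy pairs is not known here. As a share, PHYB1 made up 57.2% and 59.1% of the PHYB counts in NRP(D/E)2-RNAi NT and T and 49.5% and 49.6% in NRPE1-RNAi NT and T.

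In Jack the PHYB balance read from -0.50 to 0.22 in NT and from -0.36 to -0.27 in T, with means of -0.16 ± 0.36 and -0.32 ± 0.04 (SD, n = 3 each). For PHYA1 over PHYA2, Jack leaves lay lower than most Mustang leaves, from -1.94 to -1.38 against -1.55 to -0.75, and the cultivars overlapped. PHYA1 thus made up 20.7% to 27.8% of the counts of this pair in Jack and 25.5% to 37.2% in Mustang.

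PHYA3 over PHYA4 was the least stable balance. Its means were 1.38 ± 1.53 and 0.15 ± 1.44 in Jack NT and T (SD, n = 3 each), 2.62 ± 0.56 and 1.78 ± 0.89 in NRP(D/E)2-RNAi NT and T, and 2.93 ± 0.60 and 2.44 ± 0.35 in NRPE1-RNAi NT and T (n = 6 each). The T mean lay below the NT mean in each family, with differences of -1.23, -0.84 and -0.49. None of these differences passed a two-sided exact permutation test: p was 0.123 for the NRPE1-RNAi family and 0.0866 for NRP(D/E)2-RNAi, both 0.481 after Benjamini-Hochberg adjustment over the 9 tests of 3 pairs and 3 families. In NRPD1-RNAi p was 0.4, where 3 against 3 leaves cannot go below 0.1. Of the 9 exact tests, 0 had an unadjusted p under 0.05. Leaving out a single leaf brought it under 0.05 for PHYA3 over PHYA4 in NRP(D/E)2-RNAi without T replicate 6 (exact p = 0.0108), for the same balance in NRPE1-RNAi without NT replicate 5 (exact p = 0.026), and for PHYB1 over PHYB2 in NRP(D/E)2-RNAi without T replicate 1 (exact p = 0.039).

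**Figure D4:**
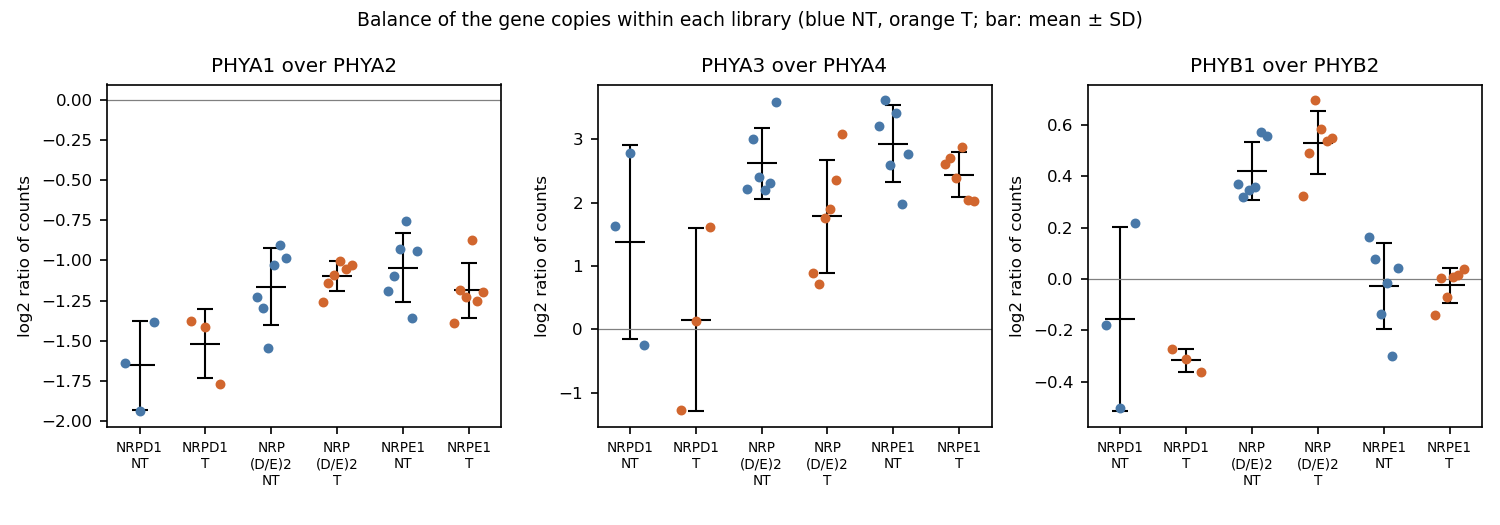
Log2 ratio of the counts of the copies of each pair (y axis) in every leaf library, by family and transgene (x axis); points are libraries and bars the mean ± SD of a group (n = 3 in NRPD1-RNAi, n = 6 in the others). For PHYB1 over PHYB2 all NRP(D/E)2-RNAi leaves lie at 0.32 or above and all NRPE1-RNAi leaves at 0.16 or below.

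Across the 30 libraries, PHYA1 and PHYA2 moved together. Pearson's r of log2(CPM + 0.5) was 0.92 (Spearman's rho 0.93), and among 31283 other genes with a mean of at least 1 CPM each was the gene most like the other. With the group means removed, r between these copies was 0.78, and the mutual first rank was lost. PHYA2 then ranked 41 in likeness to PHYA1, and PHYA1 ranked 13 in likeness to PHYA2. Between PHYB1 and PHYB2, r was 0.53 as measured and 0.85 with group means removed. PHYA1 also followed PHYB1, at 0.80 with group means removed. On that measure PHYB2 stood at 0.72 with PHYA1 and 0.71 with PHYA2, while PHYA2 with PHYB1 was lower, at 0.57. In likeness to PHYB1, PHYA1 then ranked 28 and PHYA2 ranked 1349 of the 31283 genes. PHYA3 and PHYA4 did not move together: their r was -0.18, and -0.41 with group means removed. Without the 2 libraries farthest from the median, r was 0.89 for PHYA1 with PHYA2, and with group means removed 0.78 for PHYB1 with PHYB2 and -0.42 for PHYA3 with PHYA4. The libraries share families, cultivar and scaling, and the counting of reads shared by similar copies is not known, so these values are descriptions.

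**Figure D5:**
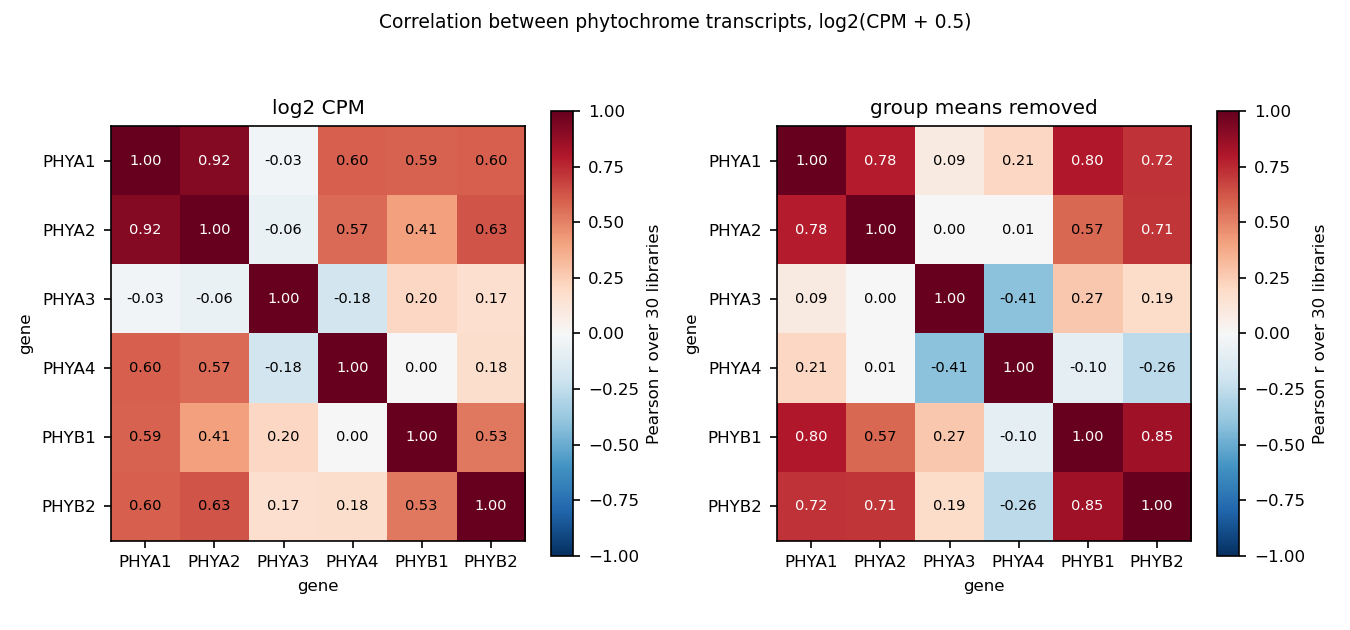
Pearson's r of log2(CPM + 0.5) between the phytochrome genes (both axes) over 30 libraries, as measured (left) and with the mean of each group removed (right); red is positive and blue negative. PHYA1 with PHYA2 stands at 0.92 and 0.78, PHYB1 with PHYB2 at 0.53 and 0.85, and PHYA3 with PHYA4 at -0.18 and -0.41.

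Over all groups, PHYA4 was the most variable of the set between siblings, with a standard deviation of 0.57 within groups on the log2 scale. Of genes at a like level (within 2-fold), 75.1% varied less. PHYA1, PHYA2, PHYA3, PHYB1 and PHYB2 had standard deviations of 0.26, 0.32, 0.36, 0.27 and 0.28. The coefficient of variation of PHYA4 in CPM was 87.5% in Jack NT and 76% in Jack T. In NRP(D/E)2-RNAi NT it was 21.5%, below 40.9% for PHYA3 and 30.1% for PHYA2. PHYA4 also varied less than PHYA2 in NRPE1-RNAi T, but varied most of the set in NRP(D/E)2-RNAi T and NRPE1-RNAi NT. The gene most like PHYA4 over the 30 libraries was Glyma.20G145800 (r = 0.93), which read 181 ± 160 and 540 ± 352 CPM in Jack NT and T, 21.0 ± 17.8 and 80.8 ± 44.6 CPM in NRP(D/E)2-RNAi NT and T, and 16.1 ± 3.7 and 27.7 ± 8.6 CPM in NRPE1-RNAi NT and T (SD). For PHYA3, PHYB1 and PHYB2 it was Glyma.11G161500 (r = 0.84), Glyma.01G241300 (r = 0.82) and Glyma.06G127600 (r = 0.91). With group means removed, only PHYB1 kept its most similar gene (r = 0.88). It was then Glyma.16G154700 for PHYA4 (r = 0.88), Glyma.10G143500 for PHYA3 (r = 0.87) and Glyma.01G079500 for PHYB2 (r = 0.91). The files give these identifiers no name.

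The call of PHYA4 in NRP(D/E)2-RNAi was also set beside its neighbours in the order of the identifiers on chromosome 3. Of the 20 nearest tested genes, 10 on each side, 4 were called higher and 1 lower, and their log2 fold changes ran from -0.57 to 1.89 around a median of 0.10. Of all genes tested in this family, 8.6% were called higher and 7.25% lower. PHYA4, at 1.17, was looked at because it was called higher, so its place above that median was set by the choice.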

How the data were processed

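Poly(A) RNA of mature leaves was sequenced on an Illumina HiSeq instrument from NEBNext libraries, as the labels state. Tools named by the submitters' processing notes are FastQC 0.11.5, STAR 2.5.3a and edgeR, with no roles given. The authors deposited a raw read count per gene identifier for each library, with no header; build, annotation, counting program and strandedness are not given in the sources used here, so reads shared by near-identical copies or antisense genes may have been counted for either.

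Libraries were grouped by family and transgene from the titles. T and NT siblings were compared per family, and cultivars, Mustang families and differences of effects in 1 model of 6 groups, in R 4.3.3 with edgeR 4.0.16 (filterByExpr, TMM, quasi-likelihood test, Benjamini-Hochberg over all genes tested, without a replicate block). DESeq2 1.42.0, other scalings, no filter, the block, other sample sets and leaving out each library were alternatives. Standard errors derive from the F statistic. Copy balances were compared by two-sided exact permutation tests. The method was tested on simulated data. In NRPD1-RNAi it recovered 0% of 2-fold and 18% of 4-fold changes. The same shares were 44% and 91% in NRP(D/E)2-RNAi and 32% and 75% in NRPE1-RNAi. A gene that was not called is therefore not shown to be unchanged, least of all in NRPD1-RNAi. Figures were made by matplotlib 3.10.9 under Python 3.11.15. Intervals and p-values measure the spread between sibling plants as labelled. In the model of 6 groups this spread is pooled over the groups. Counting errors cover counting only. In 66 pairs of libraries within groups, counts differed by more than sampling noise (lowest chi-square per degree of freedom 6.57). The naming rule took all 6 genes in every comparison, and for each the most similar gene. The members and lists were chosen with earlier results of these data known. A list of other light-signalling genes, leaf markers and the targeted subunits needed gene names and was not analysed here. No sequence was used.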

Additional observations from a re-analysis of the deposited data

Results flagged for a closer look

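In 36 groups of 6 leaves (6 genes and 3 copy balances in the 4 Mustang groups), 2 values lay far from the others. The critical value is set for about 1 in 20 independent groups. The 36 groups share libraries, so the count of 2 values cannot be read against that rate. Both belong to the same library, NRPE1-RNAi T replicate 6, and to the phytochrome B pair. PHYB1 read 21.6 CPM there, and its gap to the next leaf was 0.762 of the range of the group, above the critical value of 0.625. PHYB2 read 21.0 CPM, with a gap of 0.694 of the range. The other 5 T leaves read from 33.9 to 37.7 CPM for PHYB1 and from 33.5 to 39.0 CPM for PHYB2. Without this leaf the log2 fold changes of T over NT were 0.19 for PHYB1 and 0.19 for PHYB2, in place of 0.10 and 0.09, and neither was called. The leaf was not apart in the balance of PHYB1 over PHYB2, at 0.04.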

How the results depend on the processing

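The replicate numbers did not pair the leaves (correlations of same-numbered T and NT leaves from -0.44 to 0.44), so the replicate block is an alternative only; with it PHYA4 in NRP(D/E)2-RNAi kept its call (adjusted p = 0.0472, edgeR), and no other member's call changed. Genes called in T against NT numbered 5, 5037 and 618 in NRPD1-RNAi, NRP(D/E)2-RNAi and NRPE1-RNAi; with the replicate block 0, 2198 and 293, by DESeq2 531, 8058 and 1976, and in 1 model 208 in NRPD1-RNAi and 1415 in NRPE1-RNAi. In NRPD1-RNAi total counts gave 1 and no filter 10. For the differences of effects DESeq2 called 297 and 384 genes in place of 61 and 145. Leaving out each leaf gave 0 to 54, 2921 to 5521 and 441 to 2102 genes in the families, and 46 to 147 and 57 to 178 for the differences of effects.

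Members called numbered 4 in Jack against Mustang NT (2 under total counts, 2 to 4 without single leaves) and 1 between the Mustang NT groups (2 under total counts, 0 in a fit of these groups only, 0 to 2 without single leaves). Signs turned for values near 0. PHYB1 in NRP(D/E)2-RNAi was -0.0164 with no filter, -0.0253 with the replicate block and -0.0336 in 1 model. In Jack against Mustang NT, total counts gave -0.525 for PHYA3, -0.384 for PHYB1 and -0.0699 for PHYB2, and PHYA3 was -0.00803 with no filter and -0.0751 against NRPE1-RNAi only. In T, PHYB1 was 0.0373 with the block and 0.0038 against NRPE1-RNAi only. Between the Mustang NT groups PHYA3 was -0.0236 under total counts.

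Without single leaves, log2 differences that turned sign spanned the ranges below. Copy balances are listed where they turned sign or reached p under 0.05 in the exact permutation test. T against NT in NRPD1-RNAi gave -0.0563 to 0.117 for PHYA2, -0.185 to 0.201 for PHYA3 and -0.228 to 0.0413 for PHYB1; in NRP(D/E)2-RNAi -0.0811 to 0.103 for PHYB1; and in NRPE1-RNAi -0.0201 to 0.156 for PHYA1 and -0.0401 to 0.141 for PHYA3. Jack against Mustang gave in NT -0.201 to 0.131 for PHYA3 and -0.0306 to 0.197 for PHYB1, and in T -0.294 to 0.00525 and -0.122 to 0.0304. The Mustang NT groups gave -0.169 to 0.0854 for PHYA4. The NRPE1-RNAi minus NRP(D/E)2-RNAi effect gave -0.381 to 0.00282 for PHYA3, and the NRPD1-RNAi minus Mustang effect -0.0231 to 0.131 for PHYA2, -0.288 to 0.0613 for PHYA3 and -0.47 to 1.33 for PHYA4. Copy balances of PHYA1 over PHYA2 spanned -0.00906 to 0.27 in NRPD1-RNAi and -0.00817 to 0.121 in NRP(D/E)2-RNAi, those of PHYB1 over PHYB2 -0.334 to 0.0249, 0.0763 to 0.151 and -0.0513 to 0.0414 in NRPD1-RNAi, NRP(D/E)2-RNAi and NRPE1-RNAi, and those of PHYA3 over PHYA4 -1.1 to -0.625 and -0.68 to -0.353 in the last 2. The causes were not tested. The lowest count of PHYA4 in a library was 23, where counting error alone is 20.9% of the value.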
